A study of Homo sapiens with 12 samples.

Results

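Integrins are the cell's receptors for the extracellular matrix, each a pair of 1 alpha and 1 beta subunit that spans the plasma membrane. The alpha subunit largely sets which matrix protein is bound, and the cytoplasmic tail of most beta subunits links the pair to talin, kindlin and the actin cytoskeleton. In kidney tubules they hold epithelial cells to the basement membrane, and pairs of ITGAV with ITGB6 or ITGB8 can release TGF-beta from its latent complex.

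The subunits described are ITGA1, ITGA2, ITGA3, ITGA5, ITGA6, ITGAV, ITGB1, ITGB4, ITGB6 and ITGB8, chosen by name from a table of 20286 human gene IDs. All 10 were found, each under a single ID, and all 10 passed the filter on low counts that left 13512 genes for testing. RNA was sequenced from HK-2 cells, an immortalised line of human proximal tubule epithelium labelled as wild type and grown in DMEM with fetal bovine serum. There were 4 groups of 3 libraries: cells given S100A8 protein, S100A9 protein or the S100A8/S100A9 preparation, all recombinant, and control cells given a matching amount of PBS in DMEM. Exposure lasted 48 h in all groups, and the labels print a protein dose of 5 mg/mL. No other source was at hand to check the unit of that dose. All libraries come from 1 cell line, and nothing in the labels says that replicates were separate cultures, so each p-value reflects the spread among these libraries alone, and that spread may be technical.

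Library totals ranged from 15882193 to 20748334 counts, and the common biological coefficient of variation was 4.65%. All 8 epithelial markers were detected well enough to be tested, with KRT8, KRT18 and KRT19, keratins of simple epithelia, at 290, 172 and 154 FPKM in control cells (FPKM are fragments scaled to gene length and library total). In the same list the cadherin CDH1 averaged only 0.897 FPKM in control, and the cadherin CDH2 averaged 42.2. Of 11 proximal tubule markers, 8 averaged under 0.5 FPKM in control, among them LRP2, CUBN and AQP1, while PAX8 and GGT1 were at 115 and 28.1 FPKM. All 5 endothelial markers were under 0.5 FPKM. So were 5 of 7 leukocyte markers, with PTPRC listed at 0 in control; CD68, a lysosomal protein that is not limited to leukocytes, was at 62.7 FPKM. Of 7 fibroblast and mesangial markers, 4 were under 0.5 FPKM, and LUM was at 33.8. These are bulk samples, in which fewer cells of a type and less RNA per cell cannot be told apart.

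ITGA1, the alpha subunit of a collagen and laminin receptor, was the one subunit with a difference past the test, and another gene, PELO, lies within its locus. ITGA1 (ENSG00000213949) lies on the plus strand of chromosome 5 from 52787896 to 52959210 in GENCODE release 29 on GRCh38. PELO, which encodes a ribosome rescue factor, lies on the same strand inside that interval, from 52787940 to 52804046. ITGA2, the other collagen-binding alpha subunit among the 10, follows downstream on the same strand from 52989326 to 53094779. The RefSeq table (GRCh38.p14) gives ITGA1 and PELO the same promoter window. The bases from 250 to 31 before the RefSeq start of ITGA1 and of ITGA2 are shown because these collagen-receptor genes are neighbours and ITGA1 carries the result, with capitals marking a match to the NF-kB consensus on either strand.
ITGA1, chr5:52787666-52787885, plus strand, GRCh38.p14: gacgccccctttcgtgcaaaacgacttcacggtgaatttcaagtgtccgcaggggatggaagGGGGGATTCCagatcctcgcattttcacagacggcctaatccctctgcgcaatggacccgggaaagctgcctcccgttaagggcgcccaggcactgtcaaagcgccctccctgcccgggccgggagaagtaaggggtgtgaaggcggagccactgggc
ITGA2, chr5:52989102-52989321, plus strand, GRCh38.p14: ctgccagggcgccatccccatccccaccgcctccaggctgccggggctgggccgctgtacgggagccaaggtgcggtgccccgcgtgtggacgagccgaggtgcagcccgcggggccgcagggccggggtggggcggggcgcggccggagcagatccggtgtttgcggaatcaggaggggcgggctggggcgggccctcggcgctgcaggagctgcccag

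The ITGA1 window holds 1 match, starting at position -188, and the ITGA2 window holds 0. Over the 250 bases before each RefSeq start, 5.21% of 35116 windows in the table hold such a match. Windows were found for 8 of the 10 subunits, 11 windows in all, and 2 held one, the second being that of ITGA5 at -82. The AP-1 motif TGANTCA was in 0 of the 11 windows and in 6.57% of all windows. The GC box GGGCGG, searched on both strands, was in 5 of the 11 and in 42.6% of all. The motifs were chosen after the sequences had been seen. A match is a run of letters in this window, and no binding was measured.

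The other 8 genes lie elsewhere on GRCh38 in the same annotation. On the plus strand are ITGA3 (ENSG00000005884) at chromosome 17 from 50055968 to 50090481 and ITGB4 (ENSG00000132470) at chromosome 17 from 75721328 to 75757818. ITGA6 (ENSG00000091409) is at chromosome 2 from 172427354 to 172506282, ITGAV (ENSG00000138448) at chromosome 2 from 186590065 to 186680901, and ITGB8 (ENSG00000105855) at chromosome 7 from 20330702 to 20415754, all on the plus strand. On the minus strand are ITGA5 (ENSG00000161638) at chromosome 12 from 54395261 to 54419460, ITGB1 (ENSG00000150093) at chromosome 10 from 32900319 to 33005792 and ITGB6 (ENSG00000115221) at chromosome 2 from 160099666 to 160200313.

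The baseline repertoire of the control cells was led by ITGA3 and ITGB1, which pair as a receptor for laminins of the basement membrane. ITGA3 had 298, 306 and 311 FPKM in the control libraries and ITGB1 had 288, 289 and 274, placing them 160th and 177th of all gene IDs by mean control FPKM. ITGAV, the alpha subunit of receptors for RGD-bearing ligands such as vitronectin, had 127, 116 and 118. ITGA5, which with ITGB1 forms the main fibronectin receptor, had 29.7, 31.0 and 30.8. The other 6 subunits were each under 10 FPKM on average.

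Among those 6, ITGB8 averaged 9.83 ± 1.22 FPKM in control (SD, n = 3), ITGA6 5.71 ± 0.78, ITGB4 4.38 ± 0.20, ITGA1 3.58 ± 0.22, ITGA2 2.88 ± 0.05 and ITGB6 2.11 ± 0.14. ITGA6 is an alpha subunit for laminins that pairs with ITGB1 or ITGB4, and ITGB4 is the beta subunit of hemidesmosomes. Over all 12 libraries the ranges of ITGA3 (277 to 320 FPKM) and ITGB1 (272 to 289) overlapped, as did those of ITGA6 and ITGB4, of ITGB4 and ITGA1, and of ITGA1 and ITGA2. The other neighbours in the order did not overlap: ITGB1 stayed above ITGAV (110 to 127), ITGAV above ITGA5 (28.5 to 33.6), ITGA5 above ITGB8 (8.70 to 11.5), ITGB8 above ITGA6 (4.59 to 6.89), and ITGA2 (2.63 to 3.47) above ITGB6 (1.57 to 2.53).

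**Figure D1:**
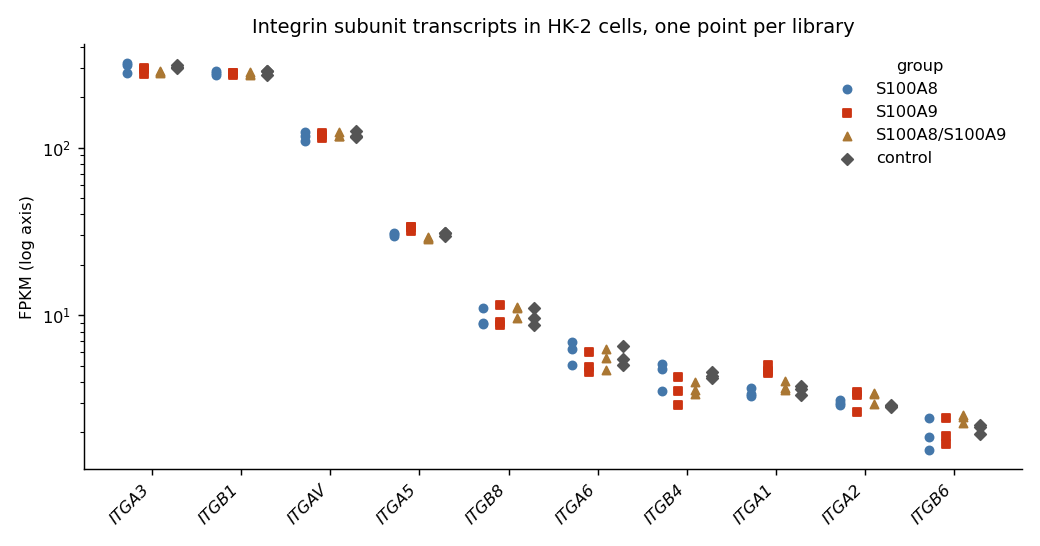
FPKM (vertical log axis) of the 10 integrin subunits in each of 12 libraries, 1 point per library, with groups marked by colour and shape. Levels run from 1.57 FPKM (ITGB6) to 320 (ITGA3); ITGA1 in the 3 S100A9 libraries, at 4.53 to 5.02 FPKM, lies above its other 9 libraries, at 3.31 to 4.03.

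Set beside the whole integrin family of 26 genes, the 10 subunits held 86.2% of the summed control FPKM, and ITGA3 with ITGB1 held 66.1%. Of the other 16 subunits, 3 were above 10 FPKM in control: ITGB3 and ITGB5, beta partners of ITGAV, at 55.5 ± 5.52 and 41.9 ± 1.23, and ITGB2, the beta subunit of leukocyte integrins, at 16.5 ± 1.47 (SD, n = 3). The leukocyte alpha subunits ITGAL and ITGAM averaged 0.0133 and 0.0900 FPKM, and ITGAX 2.84. In all, 9 of the 16 were under 0.5 FPKM. ITGA8, the mesangial subunit, was listed at 0 in all 3 control libraries.

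**Figure D2:**
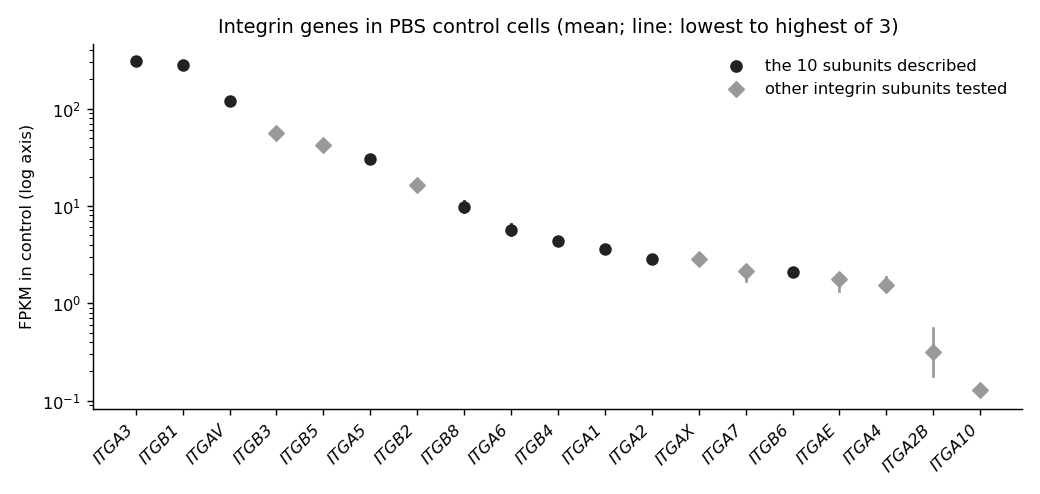
Mean FPKM in the 3 control libraries (vertical log axis; lines run from the lowest to the highest library) for the 19 integrin genes tested. The 10 subunits described are black circles and 9 others grey diamonds; ITGB3 and ITGB5 lie between ITGAV and ITGA5.

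Partner levels were compared as ratios of FPKM within each library. The sum of ITGA1, ITGA2, ITGA3, ITGA5 and ITGA6 was 1.24 ± 0.06 times ITGB1 after S100A8, 1.22 ± 0.03 after S100A9, 1.17 ± 0.03 after S100A8/S100A9 and 1.23 ± 0.06 in control (SD, n = 3 each). ITGB4 was 0.739 ± 0.030, 0.688 ± 0.048 and 0.668 ± 0.079 times ITGA6 after S100A8, S100A9 and S100A8/S100A9, and 0.779 ± 0.126 in control. ITGB6 and ITGB8 together, which pair only with ITGAV, came to 0.0989 ± 0.0088, 0.0996 ± 0.0127 and 0.109 ± 0.008 of ITGAV in the treated groups, and 0.0993 ± 0.0066 in control. These groups overlapped for all 3 ratios. The ratio of ITGA1 to ITGA2 was 1.35 to 1.72 after S100A9, above the range in the S100A8 (1.07 to 1.28), S100A8/S100A9 (1.07 to 1.22) and control libraries (1.18 to 1.29). ITGA1 itself was at 4.53 to 5.02 FPKM after S100A9 and 3.34 to 3.78 in control. ITGA2 after S100A9 (2.63 to 3.47) fell on both sides of control (2.83 to 2.92), so the ratio is not a result separate from that of ITGA1. No share over all gene pairs was computed.

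Each treatment was compared with the same 3 control libraries. S100A9 was set against PBS to ask which integrin transcripts differ after this protein. ITGA1 had 38.7, 37.9 and 41.5 CPM (counts scaled to library size after TMM normalisation) in S100A9 libraries, against 31.4, 27.0 and 29.9 in control libraries. The groups did not overlap, and ITGA1 rose by 0.42 on the log2 scale (SE 0.07, 95% interval 0.28 to 0.56). Its adjusted p was 0.0028 by the quasi-likelihood test of edgeR. ITGA1 was the single subunit of the 10 to rise and 0 fell, where 0.148% of all genes tested passed (20 of 13512); it stood 10th of all genes by p. By range alone it was also the one subunit wholly apart from control, where 6.25% of all genes lay wholly above control and 5.77% wholly below. The median log2 fold change of the 10 subunits was -0.01, and over all genes it was 0.00 to 2 decimals.

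The deposited counts at this locus were fractional. The ITGA1 count was not whole in any of the 12 libraries, nor was that of PELO, whereas the sum of both was whole in all 12 (within 0.001); the other 9 subunits had whole counts throughout. PELO had 38.1, 40.3 and 40.3 CPM in S100A9 libraries and 38.3, 42.1 and 37.8 in control libraries, a log2 difference of 0.01 (95% interval -0.12 to 0.13). In the other 2 comparisons in which ITGA1 was called, PELO differed in the same direction as ITGA1 without passing the test. Its log2 difference was 0.16 in S100A9 against S100A8 (95% interval 0.04 to 0.29, unadjusted p = 0.014, adjusted p = 0.539 in edgeR) and -0.11 in S100A8/S100A9 against S100A9 (-0.24 to 0.01, adjusted p = 0.735). In neither did the PELO values overlap, S100A9 libraries lying at 38.1 to 40.3 CPM, S100A8 libraries at 34.1 to 36.2 and S100A8/S100A9 libraries at 35.1 to 37.8. With the counts of both genes summed, an alternative chosen after seeing the data, the log2 difference of S100A9 from control was 0.20 (95% interval 0.10 to 0.30) and did not pass the test (adjusted p = 0.125 in edgeR). PELO averaged 39.4 CPM in control and ITGA1 29.4, so adding the unchanged PELO counts lowers the difference by arithmetic. The sum therefore cannot show how reads were split between the 2 genes. The call also ended without control replicate 2 (0.36, adjusted p = 0.052) and without S100A9 replicate 3 (0.38, adjusted p = 0.053).

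The direct comparisons of the preparations gave the same gene. ITGA1 was higher in S100A9 than in S100A8, whose libraries had 30.0, 27.7 and 27.7 CPM, by 0.47 on the log2 scale (SE 0.07, 95% interval 0.33 to 0.61; edgeR, adjusted p = 5.1e-04). There 0.185% of all genes passed, 0.17% higher and 0.0148% lower, and 6.41% lay wholly above S100A8 and 6.09% wholly below. In the S100A8/S100A9 preparation it had 31.0, 29.9 and 33.4 CPM, and was lower than in S100A9, the log2 fold change being -0.33 (SE 0.07; edgeR, adjusted p = 0.028). There 0.252% of all genes passed, 0.0296% higher and 0.222% lower, and 5.94% lay wholly above S100A9 and 6.53% wholly below. In both comparisons the ITGA1 values of the 2 groups did not overlap, and those of the other 9 subunits did. Both comparisons share the S100A9 libraries with the comparison against control and are not independent of it. Summed with PELO, ITGA1 passed in both, with log2 differences of 0.31 (adjusted p = 9.8e-04) and -0.22 (adjusted p = 0.043 in edgeR). The second call ended when any of the 3 S100A9 libraries was left out, and without S100A8/S100A9 replicate 1 or 2, with log2 values from -0.35 to -0.29 and adjusted p of 0.069 to 0.333, while the first passed with each of the 12 libraries left out (0.43 to 0.51). With limma on log2(FPKM + 1), ITGA1 passed in none of the 3 comparisons: the log2 differences were 0.33 in S100A9 against control (adjusted p = 0.381), 0.36 in S100A9 against S100A8 (adjusted p = 0.264) and -0.27 in S100A8/S100A9 against S100A9 (adjusted p = 0.457).

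**Figure D3:**
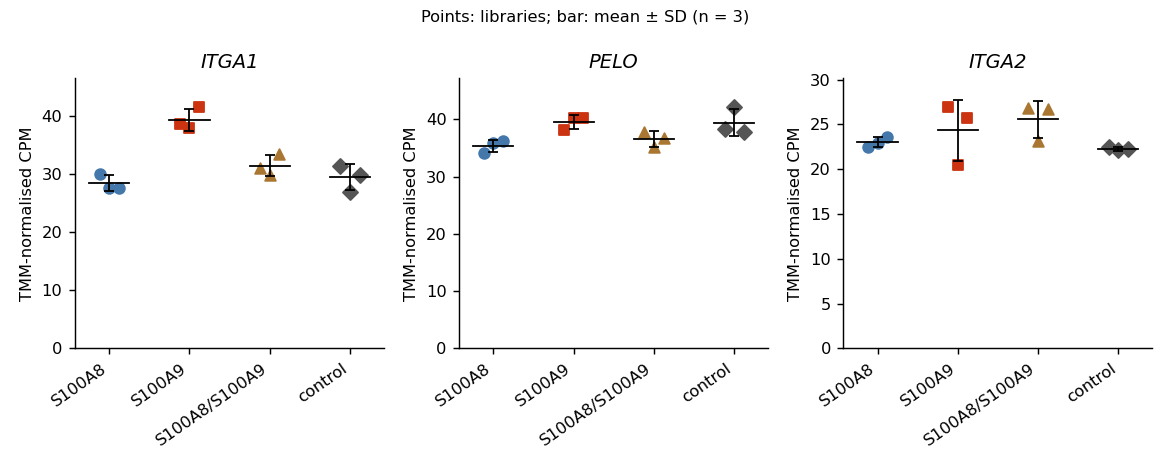
TMM-normalised CPM (vertical axis from 0) of ITGA1, of PELO, which overlaps it, and of the neighbouring gene ITGA2 in each library; horizontal bars are means and whiskers SD, n = 3. ITGA1 is highest in the 3 S100A9 libraries (37.9 to 41.5 CPM), whereas PELO and ITGA2 in S100A9 overlap control.

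ITGA1 after S100A8 and after S100A8/S100A9 differed from control by -0.05 (95% interval -0.20 to 0.10) and 0.09 (-0.05 to 0.24) on the log2 scale, and neither passed the test. Over the 12 libraries, the 5 genes of at least 1 CPM on average whose log2 CPM followed ITGA1 most closely, of 12760 compared, were WWC1 (Pearson r = 0.941), EPHB2 (0.931), DRAM1 (0.923), UBE2L3 (0.921) and ZC3H12C (0.920). These correlations are a description: the genes were read in the same libraries, with the same depth and scaling, and the libraries fall into treated and control groups.

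ITGA2, which with ITGB1 binds collagens, had 22.5, 22.9 and 23.6 CPM in S100A8 libraries, 26.9, 20.5 and 25.7 in S100A9 libraries and 26.8, 23.2 and 26.7 in S100A8/S100A9 libraries, against 22.5, 22.1 and 22.2 in control libraries. Before rounding, the S100A8 and S100A8/S100A9 libraries all lay above the controls, while S100A9 libraries fell on both sides of them. No comparison passed; the log2 difference of S100A8/S100A9 from control was 0.20 (95% interval 0.03 to 0.38, unadjusted p = 0.027, adjusted p = 0.852 in edgeR).

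The laminin receptor subunit ITGA3 had 1337, 1438 and 1404 CPM after S100A8, 1331, 1429 and 1421 after S100A9 and 1371, 1327 and 1363 after S100A8/S100A9, against 1414, 1465 and 1477 in control. Of the 3 treated groups, S100A8/S100A9 alone lay wholly below control, by a log2 difference of -0.10 (95% interval -0.18 to -0.03, unadjusted p = 0.0095, adjusted p = 0.829 in edgeR). For its partner ITGB1 the 3 treated groups had means of 1023, 1023 and 1024 CPM, and control 1037, and the intervals of all 3 differences from control ran from -0.09 to 0.05 on the log2 scale. ITGAV was as close, with log2 differences of -0.03, -0.01 and 0.00 after S100A8, S100A9 and S100A8/S100A9, and intervals within -0.12 to 0.09.

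**Figure D4:**
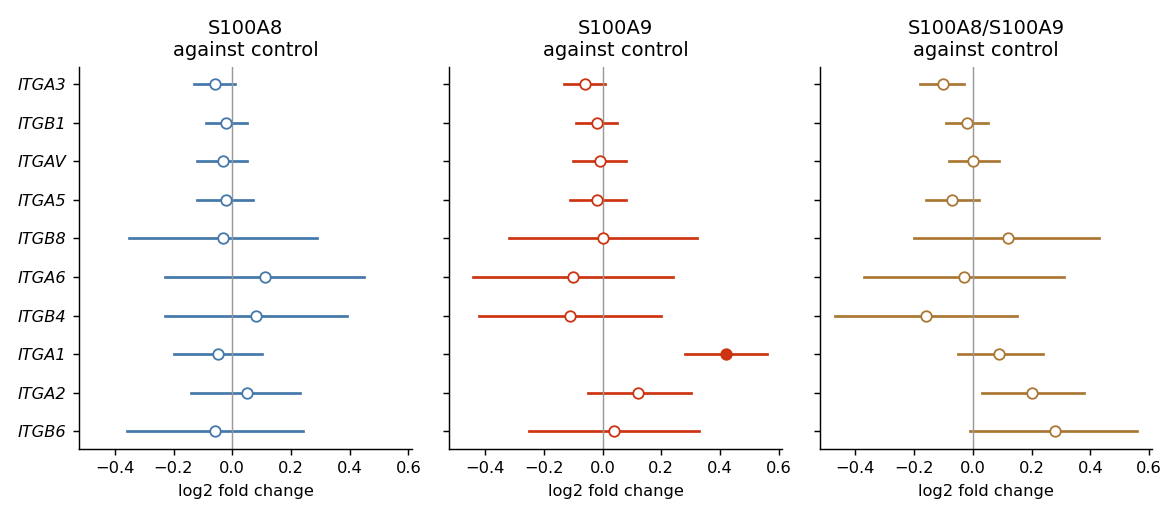
Log2 fold change against control (horizontal axis) with its 95% interval for each subunit after S100A8, S100A9 and S100A8/S100A9; filled points have an adjusted p under 0.05 in edgeR. ITGA1 after S100A9, at 0.42, is the only filled point, and the intervals are narrow for ITGB1 and ITGAV and wide for ITGA6, ITGB4, ITGB6 and ITGB8.

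In S100A8/S100A9 against control, 0 of the 10 passed edgeR's test, as did 0% of all genes; 2 of the 10 and 757 of all genes had an unadjusted p under 0.05, and DESeq2 called 1 gene, not among the 10. By range alone, 2 subunits lay wholly above control (ITGA2, ITGB6), where 5.3% of all genes did, and 2 wholly below (ITGA3, ITGA5), where 5.4% did. ITGB6, the epithelial beta subunit whose pair with ITGAV activates latent TGF-beta, had 11.1, 10.4 and 11.5 CPM after S100A8/S100A9 and 9.98, 8.27 and 9.01 in control. That is a log2 difference of 0.28 (95% interval -0.01 to 0.56, adjusted p = 0.891 in edgeR). Against S100A8, whose libraries had 10.6, 6.98 and 8.65 CPM, the difference was 0.34 (0.05 to 0.62, adjusted p = 0.980).

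After S100A8, 0 of the 10 passed edgeR's test against control, where 0.0074% of all genes did. None of the 10, and 477 of all genes, had an unadjusted p under 0.05, DESeq2 called 0 of the 10, and the log2 differences ran from -0.06 to 0.11. By range, ITGA2 alone lay wholly above control and 0 lay wholly below, where 4.41% and 4.13% of all genes did. In S100A8/S100A9 against S100A8, 0 of the 10 passed in edgeR and 0 in DESeq2, and 1 had an unadjusted p under 0.05, ITGB6; over all genes 598 did. By range 0 of the 10 stood apart, where 4.45% of all genes lay wholly above S100A8 and 4.55% wholly below.

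ITGA5 differed between scales: its S100A9 libraries overlapped control in CPM and not in FPKM. In CPM it had 124, 122 and 137 in S100A9 libraries and 126, 131 and 130 in control, a log2 difference of -0.02 (95% interval -0.11 to 0.08). In FPKM it had 33.6, 32.0 and 33.6 in S100A9 libraries, above the other 9 libraries of the series (28.5 to 31.2) and above control at 30.5 ± 0.68 (SD, n = 3). The gene length implied by the deposited count and FPKM was 3842 ± 198 bases in S100A9 libraries and 4239 ± 9 bases in control, so the deposited FPKM were made with lengths that differ between libraries. With limma on log2(FPKM + 1) the difference of ITGA5 was 0.11 and did not pass (adjusted p = 0.633). The share of all genes whose S100A9 libraries lie apart in FPKM was not computed. In CPM, 6.25% of all genes lay wholly above control after S100A9. For ITGA1 the implied length was 8283 ± 38 bases in S100A9 libraries and 8233 ± 119 in control. For ITGB4 the implied length was 5609 bases in each S100A9 library, and 4720 to 5409 in control; its FPKM was 3.57 ± 0.68 and 4.38 ± 0.20 there, and its log2 difference in counts was -0.11 (95% interval -0.42 to 0.20). GALK1, the gene of galactokinase, overlaps ITGB4 on the opposite strand, and no source used here says whether counting used strand; its log2 difference was -0.04 (95% interval -0.28 to 0.21). Which transcripts lie behind the implied lengths was not tested.

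For 9 of the 10 subunits, all but ITGB1, libraries of at least 1 replicate number lay on the same side of their group mean in all 4 groups, as they did for 40.7% of all genes tested. ITGA1, ITGA2 and ITGAV lay below it in every library numbered 2 (-0.12 to -0.04, -0.24 to -0.01 and -0.09 to -0.02 on the log2 scale), and ITGA3 and ITGA5 above it in every library numbered 3 (0.01 to 0.03 and 0.01 to 0.10). Over all genes tested, 12.5% lay below it in every library numbered 2 and 6.93% above it in every library numbered 3. ITGA6, ITGB4, ITGB6 and ITGB8, whose values follow, were picked after these deviations were seen. ITGB8 is the other beta subunit whose pair with ITGAV activates latent TGF-beta. ITGA6 in the libraries numbered 2 had 38.1 CPM after S100A8, 34.2 after S100A9, 35.2 after S100A8/S100A9 and 35.5 in control, while those numbered 1 had 28.1, 25.9, 26.8 and 31.0 in the same groups. Its partner ITGB4 had 26.2, 24.1, 22.3 and 23.3 CPM in the libraries numbered 2 and 18.8, 16.4, 18.6 and 20.5 in those numbered 1. Both genes thus stood above their group mean in the libraries numbered 2 in 4 of 4 groups, where 12.3% of all genes did, and below it in those numbered 1, where 9.73% did.

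ITGB6 and ITGB8 stood the other way round, above the mean in the libraries numbered 1, where 9.48% of all genes did, and below it in those numbered 2, where 12.5% did. ITGB8 had 97.5, 101, 98.4 and 97.0 CPM in the libraries numbered 1 after S100A8, S100A9 and S100A8/S100A9 and in control, and 78.1, 76.6, 84.9 and 76.7 in those numbered 2. ITGB6 had 10.6, 11.4, 11.1 and 9.98 CPM in the libraries numbered 1 and 6.98, 7.93, 10.4 and 8.27 in those numbered 2. The coefficient of variation of ITGB6 within groups reached 20.6% after S100A8, and that of ITGB1 3.03% at most, where the median of all genes tested was 5.44% to 5.91%. What the number stands for is not given in the labels, and its part in these levels was not tested. None of the 4 genes passed the test in any of the 6 comparisons; for ITGB8 the log2 difference of S100A9 from control was -0.00 (95% interval -0.32 to 0.32).

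**Figure D5:**
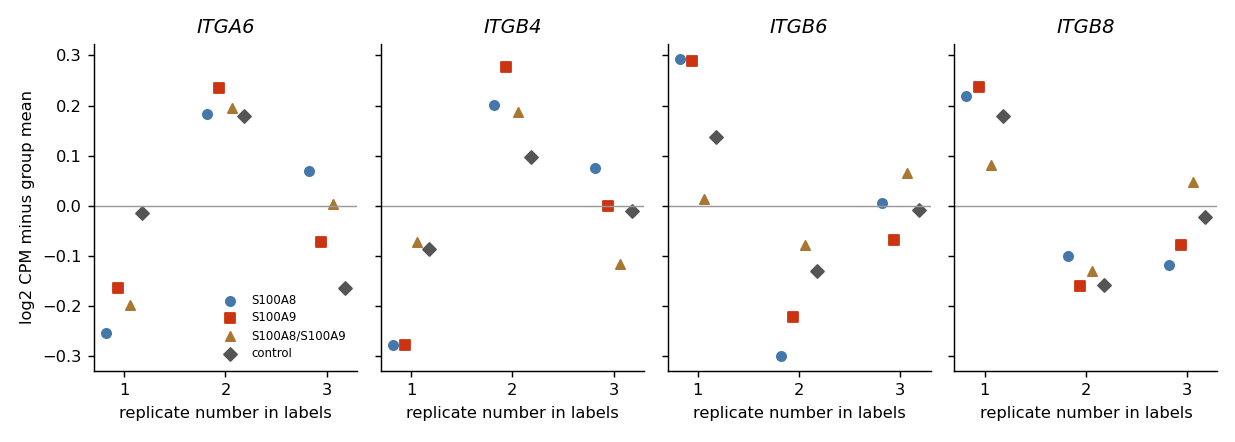
Log2 CPM minus the mean of its own group (vertical axis) for ITGA6, ITGB4, ITGB6 and ITGB8, by the replicate number in the labels (horizontal axis), 1 point per library. In all 4 groups the libraries numbered 2 lie above 0 for ITGA6 (0.18 to 0.24) and ITGB4 (0.10 to 0.28) and below 0 for ITGB6 (-0.30 to -0.08) and ITGB8 (-0.16 to -0.10).

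Of the other integrin subunits, 9 of 16 could be tested and 0 passed in any of the 6 comparisons. The smallest p after S100A9 was that of ITGB5, with a log2 difference of -0.08 from control (SE 0.05, adjusted p = 0.872 in edgeR). ITGB5 averaged 151 ± 6.72 CPM after S100A9 and 160 ± 2.58 in control (SD, n = 3 each).

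Inside the cell, most integrins are switched on and tied to actin by the adhesion plaque. Of 31 such genes 29 were tested, and 0 passed in any comparison, with a median log2 difference from control of -0.03 after S100A9, where that of all genes was 0.00 to 2 decimals. The most abundant in control were the actin cross-linker FLNA (638 FPKM), the small GTPase RAP1B (209) and the alpha-actinin ACTN1 (146), and the smallest p after S100A9 was that of LIMS2, a partner of integrin-linked kinase (log2 difference -0.23, adjusted p = 0.751 in edgeR). Of 15 inhibitors and traffic genes 12 were tested and 0 passed, with a median of -0.02 after S100A9. FLNA, RAB11A and ITGB1BP1 led them (638, 72.1 and 65.8 FPKM), and RAB21, a GTPase of integrin recycling, had the smallest p after S100A9 (0.11, adjusted p = 0.728). All 12 tetraspanins and lateral partners were tested and 0 passed (median 0.02); CD63, BSG and CAV1 led them (607, 267 and 108 FPKM), and TSPAN8, averaging under 1 FPKM in control, had the smallest p after S100A9 (log2 difference -0.73, SE 0.42; adjusted p = 0.873 in edgeR).

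Among matrix ligands, 10 of 11 laminin chains were tested and 0 passed, with a median log2 difference of -0.04 after S100A9. LAMB1 and LAMC1, chains of basement membrane laminins, were at 150 and 81.7 FPKM in control. LAMA3, a chain of the laminin bound by ITGA3 and ITGA6, averaged 99.6 ± 3.61 CPM after S100A9 and 112 ± 3.05 in control (SD, n = 3 each). Its log2 difference on counts was -0.16 (SE 0.04), with an adjusted p of 0.221 in edgeR. In FPKM it averaged 13.6 ± 0.667 after S100A9 and 14.6 ± 0.425 in control, and the groups overlapped (13.2 to 14.4 and 14.1 to 15.0). All 9 hemidesmosome genes, a list that holds ITGA6 and ITGB4 themselves and in which DST and CD151 were at 43.1 and 28.3 FPKM in control, were tested and 0 passed, with a median of 0.03.

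Of 15 collagen genes 10 were tested; COL4A2, COL4A1 and COL6A2 were the highest (139, 75.5 and 48.1 FPKM in control), and the basement membrane collagens COL4A1 and COL4A2 are known ligands of ITGA1. COL7A1, the collagen of anchoring fibrils, passed in 1 comparison: it was lower in S100A8/S100A9 than in S100A9, at 128 ± 1.49 and 156 ± 9.42 CPM (SD, n = 3 each). The log2 fold change on counts was -0.28 (SE 0.05, adjusted p = 0.0019 in edgeR). Control averaged 147 ± 6.30 CPM (SD, n = 3). The log2 difference of S100A8/S100A9 from control was -0.20 and did not pass (adjusted p = 0.630 in edgeR). In FPKM the groups were closer and overlapped, at 14.6 to 16.0 in S100A8/S100A9 libraries and 15.6 to 18.7 in S100A9 libraries. The collagen median after S100A9 was -0.03 against control. Of 22 RGD ligands and genes of latent TGF-beta 20 were tested and 0 passed, again with a median of -0.03. FN1, SPP1 and CCN1, all ligands of ITGAV pairs, were at 2499, 545 and 357 FPKM in control. FBN1, a microfibril protein, had the smallest p after S100A9 (-0.14, SE 0.03, adjusted p = 0.163 in edgeR).

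Of the cell type markers, 1 passed in any of the 6 comparisons: the keratin KRT7 was higher in S100A8/S100A9 than in S100A9, by 0.25 (SE 0.05, adjusted p = 0.013 in edgeR). KRT7 was at 95.2 to 103 CPM in S100A8/S100A9 libraries, 80.6 to 89.1 in S100A9 libraries and 94.7 to 97.6 in control. The log2 difference of S100A9 from control was -0.20 and did not pass (adjusted p = 0.110 in edgeR). The 8 epithelial markers summed to 748 to 784 FPKM in S100A9 libraries and to 802 to 816 in control libraries, groups that did not overlap. No share over all genes was computed for such sums. Of single genes, 5.77% lay wholly below control in CPM after S100A9. On counts, 1 of the 8 markers had a log2 difference from control above 0, the median was -0.08 and 0 passed in edgeR. The 5 endothelial markers summed to 0.390 to 0.440 FPKM in S100A9 libraries and 0.150 to 0.370 in control, which did not overlap either. These levels are near 0, and VWF alone of the 5 passed the filter on low counts. VWF averaged 0.167 FPKM after S100A9 and 0.217 in control, whereas PECAM1, which was not tested, averaged 0.177 and 0.0200. The part of the epithelial and endothelial markers in the ITGA1 result was not tested. Leukocyte marker sums were 60.6 to 76.4 FPKM in S100A9 libraries and 59.7 to 67.7 in control, and fibroblast and mesangial sums were 30.8 to 36.9 FPKM in S100A9 libraries and 36.6 to 39.1 in control.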

How the data were processed

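RNA of 12 HK-2 libraries was sequenced after oligo(dT) enrichment of mRNA, per the labels' protocols. The deposited table, per the file headers, gives an expected count (an estimated read count, not normalized) and an FPKM value made by the authors for each gene and library; 12% of count entries were not whole. The sources used here name no aligner, counting tool or annotation. Both builds in the submitters' processing notes, GRCm38 and mm10, are of mouse, while the gene IDs are human; loci come from GENCODE release 29 (GRCh38) and promoter windows from RefSeq (GRCh38.p14). Of the IDs, 20228 were named from a table of gene names, 50 from GENCODE, and 8 had no name.

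Counts were rounded and fitted with edgeR 4.0.16 in R 4.3.3: filterByExpr (minimum count 10), TMM, a robust quasi-likelihood model over all 12 libraries with 1 coefficient per group, 6 comparisons, two-sided tests, Benjamini-Hochberg adjustment over 13512 genes and a threshold of 0.05. Standard errors and 95% intervals were derived from the quasi-likelihood F statistic. Levels of different genes were compared in FPKM only. The members and lists were chosen with earlier results of these data known. Genes named were the 10 subunits, the 3 of each list highest in control FPKM, those past the threshold, and otherwise the 1 with the smallest p after S100A9; other markers named were chosen after their values were seen, and some genes that the rule names are not reported here. The genes most alike to a called member were ranked by Pearson correlation of log2 CPM (prior count 2). On simulated counts for S100A9 against control, over 13414 genes, the procedure recovered 68% of genes changed 1.25-fold and 92% of those changed 1.5-fold. Every simulated gene was given the common biological coefficient of variation (4.65%). Subunits that varied more, such as ITGB6 (up to 20.6% in CPM within a group), were not simulated at their own spread, so these rates do not apply to them.

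Alternatives were the replicate number as a block, DESeq2 size factors, no filter, the Wald test of DESeq2 1.42.0, the 6 libraries compared alone, no robust option, limma 3.58.1 on log2(FPKM + 1) and log2(FPKM + 0.1), each library left out, and ITGA1 summed with PELO. A count of 0 allows up to 3 counts, 0.189 CPM in the smallest library, for counting error only.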

Additional observations from a re-analysis of the deposited data

How the results depend on the processing

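Direction and call of ITGA1 in its 3 called comparisons were kept with DESeq2 size factors, no filter, the Wald test of DESeq2, the 6 libraries compared alone and no robust option. With limma on log2(FPKM + 1) or log2(FPKM + 0.1), the number of subunits called was 0 in all 3, with log2 fold changes of ITGA1 of 0.33 and 0.40 in S100A9 against control (adjusted p = 0.381 and 0.419), 0.36 and 0.44 against S100A8, and -0.27 and -0.32 in S100A8/S100A9 against S100A9; the cause was not tested. Summed with PELO it was 0 in S100A9 against control, and the uncalled difference of S100A8/S100A9 from control became -0.02. No called value of a subunit changed sign in any alternative. With 1 library left out, the number called was 0 to 1 in S100A9 against control, 1 in S100A9 against S100A8, 0 to 1 in S100A8/S100A9 against S100A9 and 0 in the other 3 comparisons. The order of the 10 subunits by control FPKM was the same without each control library, and 7 of 10 kept their rank in CPM.

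Over all genes, the count of 20 in S100A9 against control became 12 and 10 with limma (pseudocounts 1 and 0.1) and 11 to 22 with a library left out. The 25 in S100A9 against S100A8 became 10 and 10, and 14 to 27. The 34 in S100A8/S100A9 against S100A9 became 13 and 12, and 14 to 39. The 1 in S100A8 against control became 0 with both limma fits, the 6 libraries alone and no robust option, and 0 to 2 with a library left out. The 0 in S100A8/S100A9 against control became 1 with DESeq2, 2 with the 6 libraries alone and 0 to 2 with a library left out; the 0 in S100A8/S100A9 against S100A8 became 1 with DESeq2.

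The labels state no pairing and do not say what a replicate number marks, so the samples were not treated as paired. Deviations from the group mean correlated at -0.07 to 0.15 between same-numbered libraries, with 2 of 18 pairs over 0.1. Between differently numbered libraries they correlated at -0.16 to 0.10. Of the 12 libraries, 9 had their best match in another group in a library of their own number, a hint from the data that the numbers share something. With the replicate block the counts over all genes were 42, 69, 71, 2 and 2 (S100A9 against control, S100A9 against S100A8, S100A8/S100A9 against S100A9, S100A8 against control and S100A8/S100A9 against control), and no call among the 10 subunits changed.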
